A study of Homo sapiens with 9 samples.

Results

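The isoforms described here are assembled transcripts of HEK293 cells with the class code j, which Cufflinks' comparison step gives to a transcript that shares a splice junction with a reference transcript of a known gene but whose chain of introns is not that of the reference. They were chosen by that code and by a mean signal of at least 245 over the 4 RNA-seq libraries. The rule keeps 7617 of 45065 class j isoforms and of 199618 assembled isoforms in all. The members lie in 4858 loci with 4922 gene symbols. They are set against isoforms with the class code =, whose introns match a reference transcript, of which 22854 passed the same floor and 9909 of these lie in the loci of the members. The codes are those of the deposited assembly, whose exon coordinates were not used here, so neither the junctions nor the reading frames of the members could be checked.

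HEK293 is a human embryonic kidney line, used here as the b-39 subline of Flp-In T-Rex cells. Every library came from cells that also carry a β-globin reporter with a premature stop at codon 39, expressed from the Flp-In locus. The control library came from cells given siRNA against EGFP. The other 3 came from cells depleted of XRN1, of SMG6 and XRN1, or of UPF1 and XRN1. Cytoplasm was released with digitonin and poly(A)+ RNA was sequenced. There is 1 library per group, so a difference between 2 libraries has no replicate check, no p-value is given, and every comparison is between libraries. Values of a gene are listed below in the order control, XRN1, SMG6/XRN1, UPF1/XRN1.

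Nonsense-mediated decay (NMD) removes mRNAs whose translation stops upstream of a splice junction, because the exon junction complex left there during splicing is not displaced. UPF1 is the helicase at the centre of the pathway, SMG6 is an endonuclease that cuts the target near the stop codon, and XRN1 is the cytoplasmic 5′-to-3′ exonuclease that degrades the downstream fragment and decapped mRNA. Alternative splicing that adds a poison exon or shifts the frame is a common source of targets, and many RNA-binding proteins control their own level in that way.

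Reference transcripts show what such a stop looks like. For 724 members (9.51%), the nearest reference transcript is annotated as an NMD target in GENCODE 29. The last 45 bases of the annotated reading frame follow for 6 of these references, each above the frame end of the coding class = transcript with the most signal at the locus. The sequences were read from GENCODE 29 (GRCh38) transcripts, the stop codon is in capitals, and they are the references' sequences and not those of the members, whose own junctions differ from them. The genes were chosen after their values were seen, and the transcript versions can differ from those the authors used.
EEF1B2 NMD-annotated reference: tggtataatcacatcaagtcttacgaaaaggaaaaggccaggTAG
EEF1B2 coding reference: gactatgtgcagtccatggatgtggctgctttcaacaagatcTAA
TIAL1 NMD-annotated reference: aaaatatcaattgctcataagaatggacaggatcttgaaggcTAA
TIAL1 coding reference: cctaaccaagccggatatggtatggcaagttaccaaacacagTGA
MAGOHB NMD-annotated reference: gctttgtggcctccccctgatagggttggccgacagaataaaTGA
MAGOHB coding reference: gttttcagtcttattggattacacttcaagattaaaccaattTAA
PRPF39 NMD-annotated reference: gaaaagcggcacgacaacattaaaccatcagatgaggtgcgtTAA
PRPF39 coding reference: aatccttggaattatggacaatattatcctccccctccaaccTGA
LUC7L NMD-annotated reference: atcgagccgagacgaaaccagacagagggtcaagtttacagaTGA
LUC7L coding reference: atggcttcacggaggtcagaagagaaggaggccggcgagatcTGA
SRSF4 NMD-annotated reference: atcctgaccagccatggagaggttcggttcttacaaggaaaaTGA
SRSF4 coding reference: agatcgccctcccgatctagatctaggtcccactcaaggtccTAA
In these 6 pairs the frames start alike and part before the early stop, and positions of the stop codons below are on GRCh38. Not every pair that was read had this form. In RPL36A the frames share only 3 bases, and in ZNF101 both references end at the same stop codon. In EEF1B2 (plus strand) the frames share 203 bases, and the early stop at chr2:206160888-206160890 has 4 junctions after it, the last 562 bases downstream, while the coding stop is at chr2:206162881-206162883. In TIAL1 (minus strand) the frames share 371 bases, and the early stop at chr10:119580810-119580812 has 7 junctions after it, the last 969 bases downstream, while the coding stop is at chr10:119575665-119575667. In MAGOHB (minus strand) the frames share 264 bases, and the early stop at chr12:10609375-10609377 has 2 junctions after it, the last 360 bases downstream, while the coding stop is at chr12:10606275-10606277. No junction follows the stop of any of the 6 coding references, so the annotated early stops differ from them in having junctions downstream. In PRPF39 (plus strand) the frames share 452 bases, and the early stop at chr14:45096430-45096432 has 13 junctions after it, the last 1772 bases downstream, while the coding stop is at chr14:45114911-45114913. In LUC7L (minus strand) the frames share 62 bases, and the early stop at chr16:227300-227302 has 8 junctions after it, the last 772 bases downstream, while the coding stop is at chr16:189198-189200. In SRSF4 (minus strand) the frames share 107 bases, and the early stop at chr1:29166009-29166011 has 4 junctions after it, the last 603 bases downstream, while the coding stop is at chr1:29148410-29148412.

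The members nearest to these references were picked among those at least 2-fold above the control in both co-depletions. Their rises there follow from that choice. Of all 724 members near an NMD-annotated reference, 43.2% were 2-fold higher in both. EEF1B2 encodes a subunit of the elongation factor that reloads eEF1A with GTP, and its member had a signal of 3991, 10373, 33723 and 43014, while the class = isoform had 85127, 115344, 109193 and 96481. The member of LUC7L, a U1 snRNP-associated splicing factor, had 196, 734, 1916 and 4013 against 2680.1, 3128, 3917 and 3913 for its class = isoform. TIAL1, an RNA-binding splicing and translation regulator, had 437, 971, 2425 and 3153 against 10167, 13041, 16721 and 16032. In EEF1B2 and LUC7L the class = isoform stayed within 2-fold of the control in all 3 depletion libraries, while the member passed 2-fold in each. The SRSF4 member, from a gene of the SR family of splicing activators, had 353, 649, 1119.8 and 1959, beside 31641, 31611, 31832 and 30968 for the class = isoform.

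The libraries were of like depth, 31476528 to 35983475 estimated reads each, and 1 read was worth a signal of 3.72 to 4.25. Of 10 genes known in HEK293 cells, 8 had a summed signal over the floor in every library, led by vimentin, while 0 of 3 liver, 0 of 3 fibroblast and 0 of 2 endothelial markers did. Among the blood markers 1 of 7 (HBA1) did, and among markers of breast and gut epithelium 1 of 2 (EPCAM). Summed over all isoforms, the targeted mRNAs do not all check the labels. SMG6 was no lower where it was targeted, and XRN1 was not below control in either co-depletion. The class = isoforms of XRN1 alone, given further below, were under control in every depletion library. Library names below are those of the labels. The summed signal of XRN1 was 6864, 6135, 7724 and 6897, that of SMG6 2201, 2908, 2857 and 4148 and that of UPF1 4236, 7314, 7822 and 4649.8. Relative to the library labelled XRN1, UPF1 was 0.636 times as high in the library labelled UPF1/XRN1 (95% interval 0.591 to 0.684), while SMG6 was 0.982 times as high in the library labelled SMG6/XRN1 (0.883 to 1.09). Relative to control, XRN1 was 0.894 times as high in the library labelled XRN1 (0.834 to 0.958), 1.13 times in SMG6/XRN1 (1.05 to 1.20) and 1.005 times in UPF1/XRN1 (0.941 to 1.07). UPF1 was 1.10 times its control value in UPF1/XRN1 (1.01 to 1.19), and SMG6 1.30 times its control value in SMG6/XRN1 (1.16 to 1.45). HBB, the gene of the reporter, had 6745, 11262, 19436 and 41339. All ratios with an interval are of estimated reads rounded to whole numbers, so at low reads they differ from the ratio of the printed signals. The intervals are exact conditional binomial ones and cover counting error only.

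The members span a wide range of levels. Their mean signals ran from 245.2 to 897290 with a median of 783.5, against 1197 for all class = isoforms over the floor. The 2 highest belong to HFM1, a meiotic DNA helicase gene, and DLG2, a synaptic scaffold gene. The HFM1 member had 897819, 935134, 928439 and 827766 beside 517, 551, 835 and 985 for its class = isoforms, and the DLG2 member had 607033, 618413, 613570 and 621095 beside 53.96, 95.1, 91.4 and 45.9. Neither changed 2-fold in any comparison, and whether these reads come from the mRNAs of HFM1 and DLG2 was not tested. Members with the next highest means included those of RPS4X, NCL, HNRNPA1, HNRNPA2B1, the processed transcript RP5-857K21.4, RPL32 and PABPC1. At the floor, the nearest members inside include one of CA13 with 0.0703, 139, 450.5 and 391 and one of RUFY3 with 146, 615, 18.5 and 202, and the nearest isoforms outside include one of PRKD3 with 137, 237, 262 and 343 and one of PSMD11 with 48.2, 139, 399 and 392.

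Low values in 1 library bear on every count below. A mean floor lets in an isoform that is high in some libraries and near 0 in others, and such an isoform has to differ. Of the members, 623 were listed at 0 in some library, 353 of them in the control, and 939 (12.3%) had fewer than 3 reads in some library, against 5.27% of class = isoforms. The other 6678 members had at least 3 reads in all 4 libraries. Reads shared between isoforms of a locus were split by the authors' estimate, so isoforms of a locus are not independent measurements.

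Members were higher in every depletion library more often than isoforms in general. A change is log2 of the ratio of 2 signals with 1 added to each, called at 2-fold. In XRN1 over control 2180 members (28.6%) were higher and 594 (7.80%) lower, against 18.1% and 5.69% of all 30731 isoforms over the floor. The median change of the members was 0.32 on the log2 scale, against 0.18 for class = isoforms of the same loci. In SMG6/XRN1 over XRN1 1923 members (25.2%) were higher and 465 (6.10%) lower, against 15.9% and 4.25% of all isoforms, and in UPF1/XRN1 over XRN1 2047 (26.9%) were higher and 689 (9.05%) lower, against 17.3% and 7.11%. The median changes were 0.36 and 0.29, beside 0.25 and 0.16 for the class = isoforms of those loci. The first comparison shares the XRN1 library with the other 2.

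Against the control, both co-depletions gave higher counts. In SMG6/XRN1 over control 3119 members (40.9%) were higher and 393 (5.16%) lower, against 27.7% and 3.89% of all isoforms. In UPF1/XRN1 over control 3047 (40%) were higher and 588 (7.72%) lower, against 27.1% and 6.12%. Of the class = isoforms in the same loci, 26.5% were higher in each. Among the 6678 members with 3 reads everywhere, 2511 and 2448 were higher in the 2 co-depletions, and 211 and 377 lower. The median of all isoforms was itself above 0 in each comparison, by 0.20, 0.24, 0.13, 0.43 and 0.32 in the order given. Centred on it, 2488 members were higher and 657 lower in SMG6/XRN1 over control, and 2633 higher and 810 lower in UPF1/XRN1 over control. Shares over all isoforms were not computed with 3 reads in every library or centred alike. The counts under these 2 settings therefore describe the members alone.

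**Figure D1:**
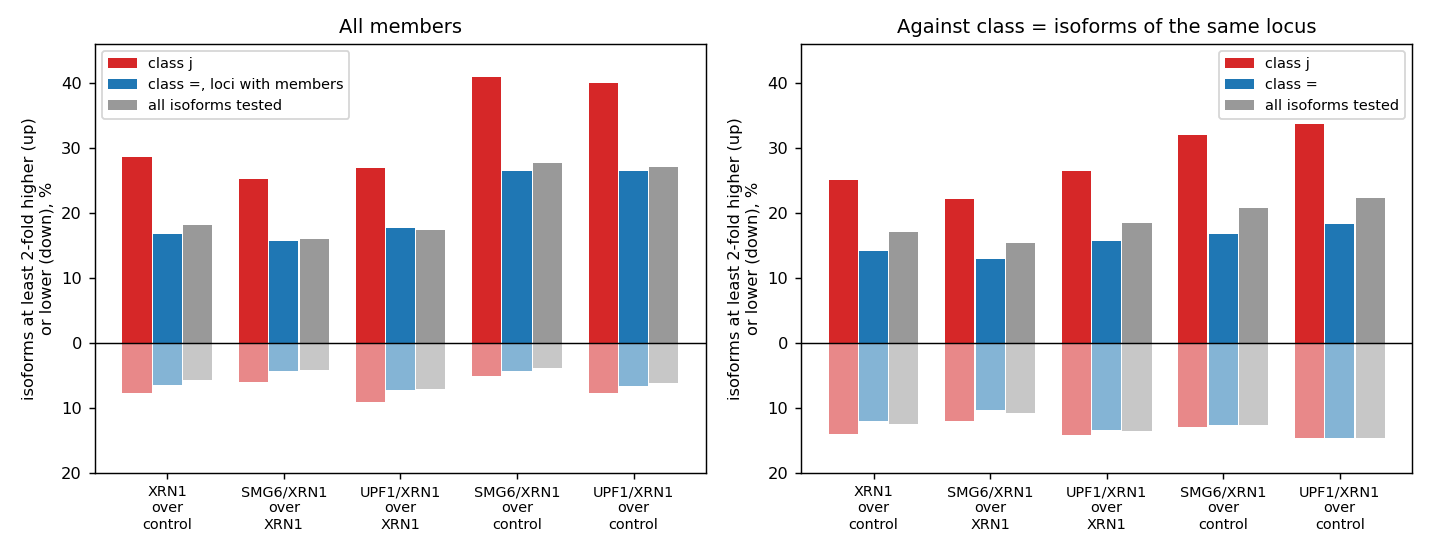
Percent of isoforms at least 2-fold higher (bars up) or lower (pale bars down) in each of 5 comparisons between libraries, for class j members (red), class = isoforms (blue; in the left panel those of loci with members) and all isoforms tested (grey); the left panel uses each isoform's own change and the right panel its change minus that of the class = isoforms of its locus. Red bars stand above blue and grey ones on the higher side of every comparison, reaching 40.9% in SMG6/XRN1 over control in the left panel and 33.7% in UPF1/XRN1 over control in the right.

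Both co-depletions at least 2-fold above the control, which share that control library, were seen for 2654 members (34.8%), against 22.4% of all isoforms and 21.3% of class = isoforms of the same loci. Both were at least 2-fold lower for 179 members (2.35%), against 1.84% of all isoforms. The authors' own NMD mark, set where both co-depletion values are above 0 and over 2 times the control, was on 2667 members (35.0%), against 22.5% of all isoforms, and was not used to choose any. Of the 2654, 1733 (65.3%) were also 2-fold higher in XRN1 over control, which has the same control library, against 60.4% of the 6892 isoforms of any class that rose in both. The signal in both co-depletions exceeded that in XRN1 for 2146 (80.9%), against 80.6%, and UPF1/XRN1 was above SMG6/XRN1 for 1532 (57.7%), against 57.4%. The last 2 shares of the members were thus those of risen isoforms in general.

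Members were also set against the class = isoforms of their own locus. For 6660 members in 4196 loci the summed class = isoforms of the locus also passed the floor, and the change of that sum was subtracted from the change of the member. In XRN1 over control the members were 2-fold higher than the sum in 25% and lower in 14.0%, against 17.0% and 12.5% when an isoform of any class was set against the other class = isoforms of its locus. In SMG6/XRN1 over XRN1 the shares were 22.1% and 12%, against 15.3% and 10.8%, and in UPF1/XRN1 over XRN1 26.5% and 14.2%, against 18.5% and 13.6%. In SMG6/XRN1 over control they were 32.0% and 13.0%, against 20.7% and 12.7%, and in UPF1/XRN1 over control 33.7% and 14.6%, against 22.3% and 14.7%. The members lay further above the background on the higher side than on the lower side in all 5 comparisons. The median difference on the log2 scale was 0.30 and 0.32 in the last 2 comparisons and 0.17 in XRN1 over control.

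The class = sum was set beside each member that rose. Of 2400 of the paired members that were at least 2-fold above the control in both co-depletions, in 1827 loci, the class = sum changed by less than 2-fold in both for 1572, rose 2-fold in both for 560 and fell 2-fold in both for 14. A class = sum under 2-fold in both was more frequent over all 6660 paired members, at 4954 (74.4%), than beside those that rose, at 65.5%. With 3 reads in every library the numbers were 1240 of 1918 for a sum that changed by less than 2-fold. Of 169 members that were 2-fold lower in both, the sum changed by less than 2-fold for 133 and rose for 24. For sums that rose or fell, no share over all paired members was computed, so those counts have no background.

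**Figure D2:**
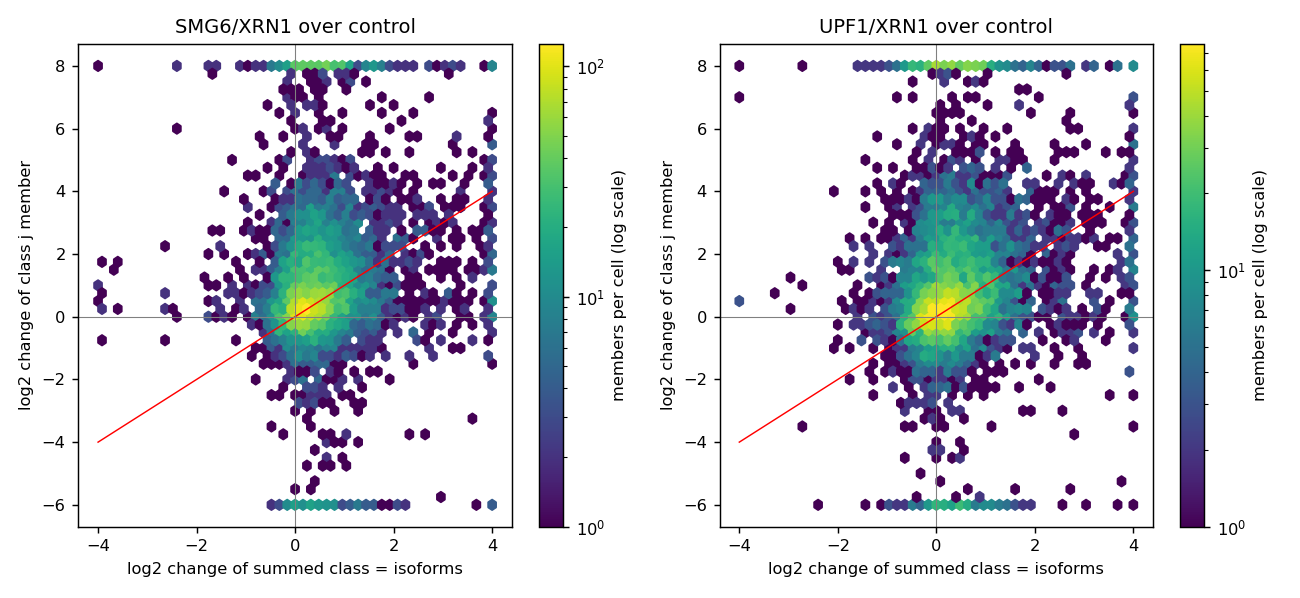
Log2 change of each of the 6660 class j members (vertical) against the log2 change of the summed class = isoforms of its locus (horizontal), for SMG6/XRN1 over control (left) and UPF1/XRN1 over control (right); colour gives members per cell on a log scale, the red line marks equal change, and values beyond the axes are drawn at their edges. The cloud is widest upward near a horizontal value of 0, where 1572 members rose at least 2-fold in both co-depletions beside a class = sum under 2-fold in both, as was the sum of 4954 of all 6660 members.

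The part of a locus that its members hold was larger in each depletion library. Over the 4196 loci the median share of the members in the class j and class = signal was 21.3%, 24.2%, 25.99% and 26.9% in the order of libraries given above, with interquartile ranges from 6.76% to 47.7% in control and from 11.4% to 50.3% in UPF1/XRN1. Of all isoform signal, the members held 13.5%, 14.1%, 14.9% and 15.3% in the same order. Without the HFM1 and DLG2 members these were 12.4%, 13.1%, 14.0% and 14.4%. The members were chosen by their mean over all libraries, most of which are depletions, so the choice itself favours a lower share in control. In the same order 538, 274, 178 and 209 members had fewer than 3 reads. Shares were not computed for class = isoforms chosen alike, or with 3 reads in every library. How much of the larger share follows from the choice was therefore not tested.

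Isoforms of 1 locus did not all behave alike. A single member was found in 3124 loci, 2 in 1108, 3 in 397 and more in 229, with up to 12 in a locus. Of the 1734 loci with several, all members were 2-fold above the control in both co-depletions in 257, some but not all in 805 and none in 672, and in 61 a member was higher in both while another was lower in both. No such counts were made over class = isoforms, so mixed loci are not shown to be particular to the members. SRSF11, which encodes an SR-related splicing factor, shows the range within a locus. Its isoform TCONS_00003552 had 613, 6147, 6765 and 8819, another of its isoforms had 355, 768, 3141 and 3459, and TCONS_00003553 had 646, 150.0, 180.1 and 338, so that 2 were highest in UPF1/XRN1 and the third was highest in control.

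Calls were less frequent among highly abundant members, as they were for class =. Between mean signals of 245 and 500, 40% of members were 2-fold above the control in both co-depletions, against 28.4% of class = isoforms. The shares were 39.4% against 23.2% from 500 to 1000, 36.3% against 18.7% from 1000 to 2000, 26.2% against 11.3% from 2000 to 5000, and 14.7% against 6.15% from 5000 up. With 3 reads in every library the lowest range gave 35.7% against 25.5%. The members therefore stood above class = isoforms in all 5 ranges of signal, which follows length as well as abundance.

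Shares differed with the type of the nearest reference in both classes. The reference was matched in GENCODE 29 for 93.1% of members. Near a protein-coding reference, 1859 of 5646 members (32.9%) were 2-fold above the control in both co-depletions, against 12.5% of class = isoforms that match such a reference. Near an NMD-annotated one the share was 43.2% of 724 members, against 48.0% of class =. Processed transcripts gave 45.7% against 31.0%, lincRNAs 38.7% against 38.3%, and antisense RNAs 17.5% against 19.2%. Among types with at least 50 isoforms in a class, the highest share was near transcribed unprocessed pseudogenes, with 69 of 92 members (75%). The median changes of these members over control were 2.35 (SMG6/XRN1) and 2.33 (UPF1/XRN1). Fewer than 50 class = isoforms matched such pseudogenes, so no class = share is given. Such pseudogenes are copies of coding genes. How alike they are to their parents was not measured here, so the split of reads between them is uncertain. The members of CCT6P1, a chaperonin pseudogene, with 55.4, 1789.9, 4665 and 7136, SMG1P1, a pseudogene of the NMD kinase SMG1, with 27.2, 169, 2109.6 and 2568, and CROCCP2 with 61.2, 1133, 3953 and 6671 had their lowest value in control and their highest in UPF1/XRN1.

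**Figure D3:**
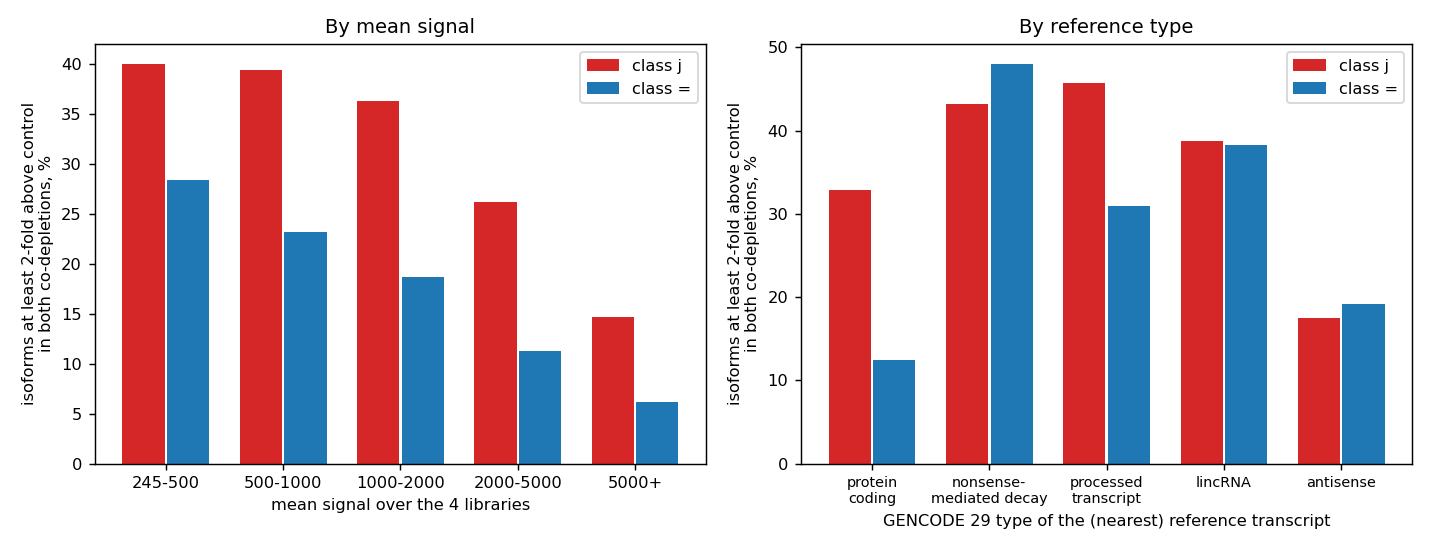
Percent of class j members (red) and class = isoforms (blue) at least 2-fold above the control in both co-depletions, by mean signal over the 4 libraries (left) and by the GENCODE 29 type of the nearest or matching reference transcript (right). The classes differ in every range of signal and most of all near protein-coding references, 32.9% against 12.5%, while near NMD-annotated references they stand at 43.2% and 48.0%.

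The largest rises by the rule for named isoforms rest on a library with less than 1 read, so folds are given as bounds against 3 reads in that library. CLK4, a kinase that phosphorylates SR proteins, had a member with 0.211, 4614, 4346 and 3925, at least 399-fold higher in XRN1 and at least 376-fold higher in SMG6/XRN1 than in control. The class = sum of CLK4 was 3022, 2882, 8169 and 7927, so it rose in both co-depletions too. YBX3, a cold-shock RNA-binding protein, had 3.3, 676, 4549 and 5007 while its class = sum was 74890, 86281, 77799 and 60742. For the members of both genes the control stood apart from all 3 depletion libraries. CSTF1, a subunit of the cleavage stimulation factor, had 0.221, 557, 2098 and 2232, at least 181-fold higher in SMG6/XRN1, and ALKBH8, a tRNA methyltransferase, had 0.0666, 953, 2307 and 1979, at least 199.6-fold higher. In YBX3, CSTF1 and ALKBH8 the class = sum stayed within 2-fold of the control in both co-depletions. The signal of the whole locus was 77512.8, 89158.3, 87345.5 and 69784.5 for YBX3 and 8938, 8472, 9578 and 8545 for CSTF1. For ALKBH8 it was 2516.8, 4138.8, 5777.2 and 5579.8. Whether signal moved between isoforms of the locus was not tested.

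Other extremes were uneven between the depletion libraries. MGEA5, the gene of O-GlcNAcase, had 0.434, 2959.6, 6.41 and 20.01, high in XRN1 alone. A member of ASCC2 had 0.0467, 0.1, 0.192 and 2309, high in UPF1/XRN1 alone, and one of EPB41L3 had 0.308, 0.187, 3008 and 305, highest in SMG6/XRN1 and also above control in UPF1/XRN1. A member of TRIM35, a ubiquitin ligase gene, had 158, 2588, 0.0469 and 1.11, high in XRN1 and near 0 in both co-depletions. With 1 library per group, the library and the condition cannot be told apart in such patterns.

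Among members with at least 3 reads in every library, a set named after the data were seen, the rises were also large. SEC61A2, which encodes a translocon subunit, had 20.96, 2053, 4558 and 3922, and its class = sum was 1563, 1291, 2777 and 2614. IDE, the insulin-degrading enzyme, had 30.2, 299.8, 3275 and 3804 beside 18288, 19538, 24331 and 27119.7. CEPT1, an enzyme of phospholipid synthesis, had 21.97, 1211, 2066 and 1871 beside 4799.6, 6953, 9422 and 8193. In all 3 genes the control was the lowest library. Of members near an NMD-annotated reference, that of RAB2A, a small GTPase of the early secretory pathway, had 20.2, 184, 1089 and 990.5 and that of AP1S3, an adaptor subunit, had 28.1, 824, 1288 and 1259, with class = sums of 10849, 10834, 9284 and 8631 and 2917, 3262, 3235 and 2955.

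Gene groups are read here by how many members were 2-fold above the control in both co-depletions, beside the 34.8% of all members and the 22.4% of all isoforms, and by the median change over control. That median was 0.69 in SMG6/XRN1 and 0.61 in UPF1/XRN1 for all members, and 0.43 and 0.32 for all isoforms. The hnRNP, proteasome, respiratory chain, reference gene and decapping, deadenylation and exosome groups had 33.3% to 34.8%, near the share of all members. Medians below are in that order on the log2 scale. Those of class = sums take the sum once per paired member, so a locus with several members counts several times. The groups differ in size, levels and near-identical copies, and no group was tested against another.

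SR proteins and their TRA2 relatives, activators of splicing that are known for poison exons, had 21 members in 10 genes, of which 9 were higher in both and 2 lower (medians 0.58 and 1.57). Taken once per member, the class = sums of their loci had medians of 0.65 and 0.49, which are the values of the SRSF11 locus. TRA2A, which binds purine-rich splicing enhancers, had a member (TCONS_00180180) with 1109, 3379, 11519 and 21836. It was 10.4 times as high (95% interval 9.19 to 11.8) in SMG6/XRN1 and 19.7 times as high (95% interval 17.5 to 22.2) in UPF1/XRN1 over control, while the class = sum was 17974, 18182, 20819 and 20614. Its level per length of the whole locus was 92.9, 104, 139 and 186 FPKM. In UPF1/XRN1 the member's signal thus passed that of all class = isoforms of TRA2A together. The first SRSF11 member shown above was already 10.03 times as high (95% interval 8.51 to 11.9) in XRN1 over control.

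The group of hnRNP, PTB and PCBP proteins, which bind pre-mRNA and often repress exons, had 48 members in 20 genes, with 16 higher in both and 1 lower (medians 0.24 and 0.40). HNRNPH3, a binder of G-rich RNA, had a member (TCONS_00020032) with 453, 1091, 7697 and 13195, 16.9 times as high (95% interval 14.05 to 20.6) in SMG6/XRN1 and 29.01 times as high (95% interval 24.1 to 35.2) in UPF1/XRN1 over control, beside a class = sum of 55192, 52452, 68349 and 69475. Its relative HNRNPH1 had 436, 229, 4761 and 7204 (TCONS_00165198), lowest in the XRN1 library. PTBP2, the neuronal PTB, had 124, 326, 1945 and 1216, highest in SMG6/XRN1. The class = sum of PTBP2 rose too, with 8020, 15492, 34192 and 29393. A member of HNRNPF went the other way in a single library, with 8676, 9055, 7917 and 482, 0.0557 times as high (95% interval 0.0463 to 0.0665) in UPF1/XRN1 relative to control.

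Other splicing factors and kinases had 87 members in 44 genes, with 38 higher in both and 1 lower (medians 0.92 and 0.87), and with 3 reads in every library 27 of 73. PRPF3, a protein of the U4/U6 snRNP, had 50.2, 127, 919 and 1036, 18.3 times as high (95% interval 10.5 to 34.98) in SMG6/XRN1 over control. ACIN1, a protein that joins the exon junction complex, had 26.8, 1.26, 479 and 558, so that control and XRN1 lay far below both co-depletions. A member of RBFOX2, a regulator of alternative exons, had 1815, 542, 1194 and 96.3, with its lowest value in UPF1/XRN1.

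**Figure D4:**
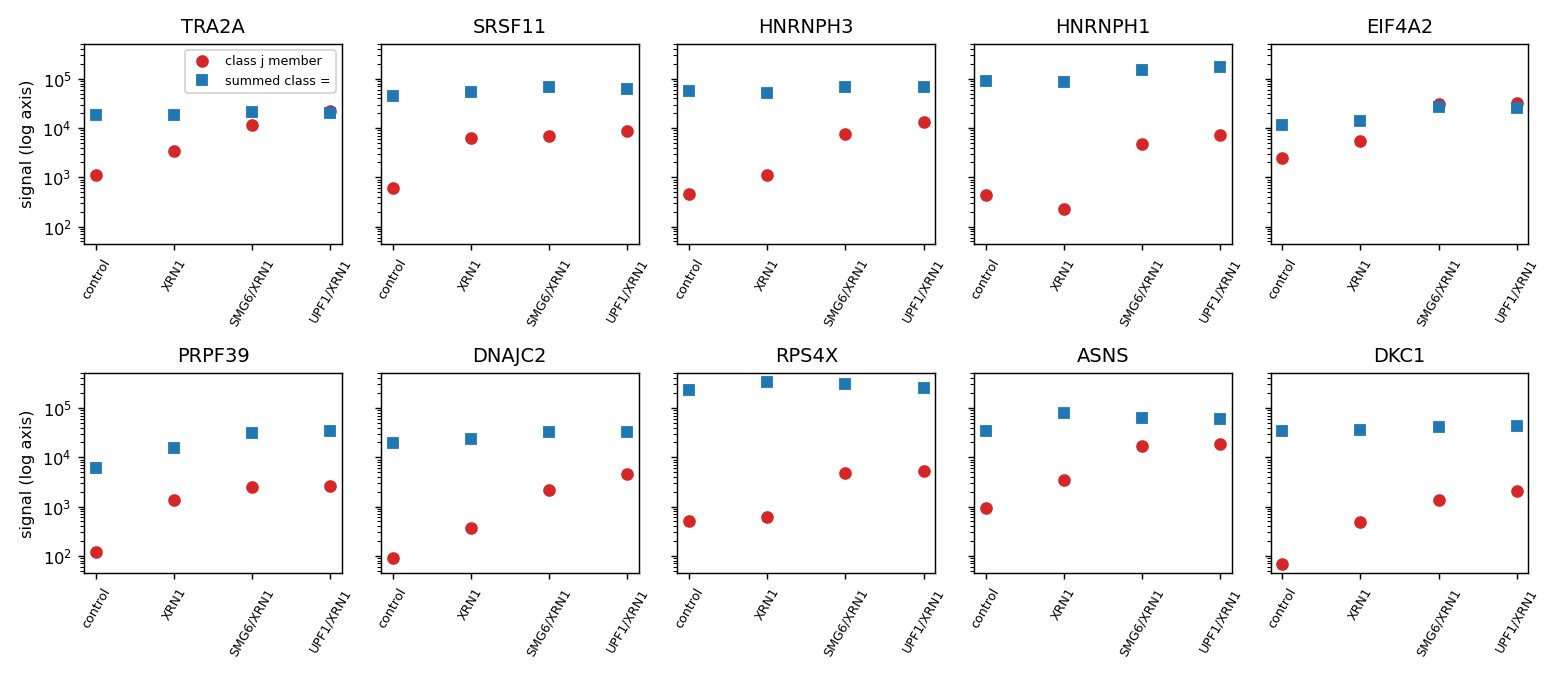
Signal in each of the 4 libraries, on a log axis, of 10 class j members (red circles) and of the summed class = isoforms of the same locus (blue squares), 1 panel per gene and 1 library per point. Every red point in SMG6/XRN1 and UPF1/XRN1 lies above its control point, as for TRA2A with 1109, 3379, 11519 and 21836, and the class = sum of TRA2A is 17974, 18182, 20819 and 20614. The 10 were picked by hand from the named isoforms, so this direction follows from the choice and says nothing of members in general. Named members that were lower, such as those of HNRNPF and RBFOX2, are not drawn.

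Host genes of small nucleolar RNAs (snoRNAs), which carry these guides of rRNA modification in their introns, were read as 2 lists. The list headed non-coding hosts had 18 members in 6 genes, 17 of them higher in both and 0 lower, the highest share of the 20 lists. It also holds TAF1D and CCDC84, which code for protein. The class = sums moved with the members here. Taken once per member, their median changes were 3.21 and 2.51 in SMG6/XRN1 and UPF1/XRN1 over control, beside 3.36 and 3.11 for the members. With 18 members in 6 genes, these medians weigh a locus by its number of members. A member of SNHG1, a host without a conserved protein, had 8.94, 74.9, 511 and 487, lowest in control, and its class = sum was 4598, 15207, 43534 and 78060.5. TAF1D, a subunit of the RNA polymerase I factor SL1, had a member with 30.5, 190.0, 1271 and 1299 beside 13372, 29592, 123931 and 110203, and its member with the smallest rise had 1257, 2829.7, 2857 and 2083.

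Protein-coding snoRNA hosts had 65 members in 27 genes, with 27 higher in both and 0 lower (medians 0.90 and 1.08). PRPF39, a U1 snRNP-associated factor, had 118, 1366, 2460.5 and 2598, 20.6 times as high (95% interval 14.4 to 30.6) in SMG6/XRN1 over control, and its class = sum rose too, 5954, 15073, 31199.9 and 33808. DKC1, the pseudouridine synthase of H/ACA particles, had 67.2, 492, 1331 and 2059.6 beside 33390.2, 35627, 40318 and 43416, and NOP58, a core protein of C/D particles, had 33.5, 185, 542 and 635 beside 38417, 59619, 75495 and 100644. In all 3 the member was higher in XRN1 than in control and higher again in both co-depletions. The CHD8 member, from a chromatin remodeller gene, was the lowest of the group with 1358, 1606, 1049 and 458.

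Factors of the pathway itself carried members. NMD factors had 12 in 6 genes, with 7 higher in both and 1 lower (medians 1.19 and 1.30), and the exon junction complex list had 5 in 5 genes, with 4 higher in both (medians 1.82 and 2.32). Taken once per member, the class = sums of the same loci had medians of 1.84 and 1.96 for the NMD factors, above those of the members. For the exon junction complex list these were 0.04 and -0.02. DHX34, an RNA helicase of NMD, had 138, 909, 1356 and 1980.2, and its class = sum was 97.4, 1401, 1878 and 1443. UPF3A, a partner of UPF2, had 971, 2213, 3435 and 4863 while its class = sum was 7086, 5690.3, 6879.6 and 7005, and the member was 5.01 times as high (95% interval 4.37 to 5.75) in UPF1/XRN1 over control beside a sum within 2-fold. The member of UPF3B, its paralogue, had 4907, 9064, 10497 and 10151. MAGOHB, a core subunit of the exon junction complex, had 77.4, 289, 452 and 608. RNPS1, which joins that complex, was the lowest of its list with 507, 1038, 1117 and 926.

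The targeted genes have members too. UPF1 had 1 with 1261, 2485, 2159.8 and 3169, highest in the library labelled UPF1/XRN1, while its class = sum was 2968, 4799, 5655 and 1250.5, lowest there. Of the 4 members of XRN1, TCONS_00145819 was listed at 0 in control and had 181, 763 and 1252 in the other 3, at least 108-fold higher in UPF1/XRN1, and TCONS_00145812 had 1870.2, 2259.9, 2424 and 1308. The class = sum of XRN1 was 3869, 1337, 1869 and 1785, below control in all 3 depletion libraries and lowest in the library labelled XRN1. The sum over all isoforms of the locus changed less. No member of SMG6 or HBB was found.

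Other decay enzymes, for decapping, deadenylation and the exosome, had 46 members in 22 genes, with 16 higher in both and 0 lower (medians 0.71 and 0.72). EXOSC9, an exosome subunit, had 162, 675, 1655 and 1579, CNOT10, of the CCR4-NOT complex, had 162, 943, 1821 and 1370.5, and XRN2, the nuclear relative of XRN1, had 166, 125, 1305 and 1262. In the first 2 genes XRN1 already exceeded control, and in XRN2 it did not. The deadenylase CNOT6 had the lowest member with 10289, 9785, 4627 and 8738.

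Genes taken as known NMD targets had 18 members in 12 genes, with 14 higher in both and 1 lower, and median changes of 2.59 and 2.70 beside 1.08 and 1.48 for their class = sums. The list was drawn up with results of these data known, so its direction is not independent evidence. TBL2, which encodes a protein of the endoplasmic reticulum, had 47.6, 672, 672 and 969, and TMEM33, another such protein, had the falling member with 2129, 1096, 31.9 and 444. ATF4 targets, genes of amino acid supply and stress, had 12 members in 10 genes, with 7 higher in both and 0 lower (medians 1.49 and 1.25). ASNS, asparagine synthetase, stands in both lists. Its member (TCONS_00182232) had 951, 3508, 16616 and 18478, 17.5 times as high (95% interval 15.3 to 19.9) in SMG6/XRN1 over control, beside 34642, 77216, 63113 and 59096. CTH, cystathionine gamma-lyase, had 494, 2094, 5282 and 7322, STC2, a secreted glycoprotein, had 461, 5711, 3389 and 4896 with its peak in XRN1, and PSAT1, of serine synthesis, had 4468, 8940.2, 7570.5 and 4839.

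Aminoacyl-tRNA synthetases, which charge tRNAs, had 14 members in 11 genes, with 7 higher in both and 1 lower (medians 1.03 and 1.23). RARS had 226, 142, 1079 and 1353, HARS 60.7, 215, 253 and 524 and VARS, the lowest, 2555, 3861, 3420.2 and 2252. Polyamine and antizyme genes had 5 members in 4 genes (medians 0.67 and 1.36), with 1 higher in both, that of the antizyme inhibitor AZIN1, with 219, 356, 1220.3 and 2467. A member of ODC1, the first enzyme of polyamine synthesis, had 18942, 19932, 21626 and 20723 and stayed within 2-fold throughout. The p53 targets had 6 members in 4 genes (medians 0.31 and 0.37), with 0 higher in both and 1 lower, that of ZMAT3, a zinc finger RNA-binding protein, with 2671, 910.4, 246 and 336. A member of FAS, a death receptor, had 2226, 2259, 4272 and 3749.8.

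The translation machinery had lower shares than the members as a whole. Ribosomal proteins had 47 members in 31 genes, with 11 higher in both (23.4%) and 0 lower, and medians of 0.23 and 0.04. One was a minor isoform of RPS4X, a protein of the small subunit (TCONS_00204159), with 516, 612, 4699.7 and 5251, 9.1 times as high (95% interval 7.6 to 10.97) in SMG6/XRN1 over control. Its locus also holds the abundant member TCONS_00204160 with 471665, 615106, 570372 and 431751, which stayed within 2-fold, and both can share reads with copies of the gene elsewhere in the genome. RPL36A had 40.4, 129, 546 and 589.6 and RPL3, of the peptidyl transferase centre, 61.7, 345, 437 and 457, beside class = sums of 244721, 271413, 263649 and 217376 and 190922, 269810, 246307 and 205636. The RPLP0 member had 649, 676, 97.8 and 775, low in SMG6/XRN1 alone.

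Translation factors had 78 members in 36 genes, with 23 higher in both and 2 lower (medians 0.30 and 0.35). EIF4A2, a helicase of the cap-binding complex and itself a snoRNA host, had the most abundant of those named (TCONS_00140894), with 2508, 5511, 30622 and 32929.9. It was 12.2 times as high (95% interval 11.3 to 13.2) in SMG6/XRN1 over control and 2.2 times as high (95% interval 1.999 to 2.42) in XRN1 over control, and its signal passed the class = sum of 11262, 14035, 26942 and 25043 in both co-depletions. EIF4B, its cofactor, had 50.2, 81.2, 541 and 581, EIF3G, of the scaffold eIF3, 45.1, 120.0, 499 and 650.0, and EIF3B the lowest, 1074, 1053, 622 and 119.

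Of the remaining lists, proteasome subunits had 27 members in 17 genes, with 9 higher in both and 0 lower (medians 0.48 and 0.60), heat shock and DNAJ chaperones 57 in 32 genes with 15 and 3 (medians 0.69 and 0.66), and nuclear-encoded respiratory chain genes 35 in 27 genes with 12 and 1 (medians 0.42 and 0.59). PSMC6, an ATPase of the proteasome, had 70.8, 375, 774 and 1016. DNAJC2, a ribosome-associated chaperone, had 90.7, 369, 2198 and 4656, 50.3 times as high (95% interval 33.7 to 78.9) in UPF1/XRN1 over control, and its class = sum was 19362, 23171, 33277 and 33054. UQCRC2, a core subunit of complex III, had 61.7, 905, 1090.2 and 1182 beside 37074, 39548, 36624 and 30645, with the step between control and XRN1. Against these, CCT6A, a chaperonin subunit, had 2252, 3175, 4562 and 210.0, low in UPF1/XRN1 alone, and NDUFS1, of complex I, had 1666, 1417, 780.5 and 158.

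Zinc finger ZNF genes had 202 members in 146 genes, with 53 higher in both (26.2%) and 6 lower (medians 0.61 and 0.47), and with 3 reads in every library 38 of 170. These genes form a large family with similar sequences, so their split of reads is uncertain. ZNF25 had 0.0473, 0.0391, 1029 and 794, with control and XRN1 under 1 read, and ZNF490 had 1164, 368, 2.62 and 0.265, with both co-depletions under 1 read. Common reference genes had 12 members in 7 genes, with 4 higher in both and 0 lower (medians 0.09 and 0.05). YWHAZ, which encodes 14-3-3 zeta, had a minor member with 106, 3378, 1701 and 1344 beside a class = sum of 102120, 90669.9, 104245 and 99388, and GUSB, beta-glucuronidase, had 97.5, 971, 1105 and 1494 beside 1073, 3559, 4765 and 4908. The class = sum was flat for YWHAZ and rose for GUSB.

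**Figure D5:**
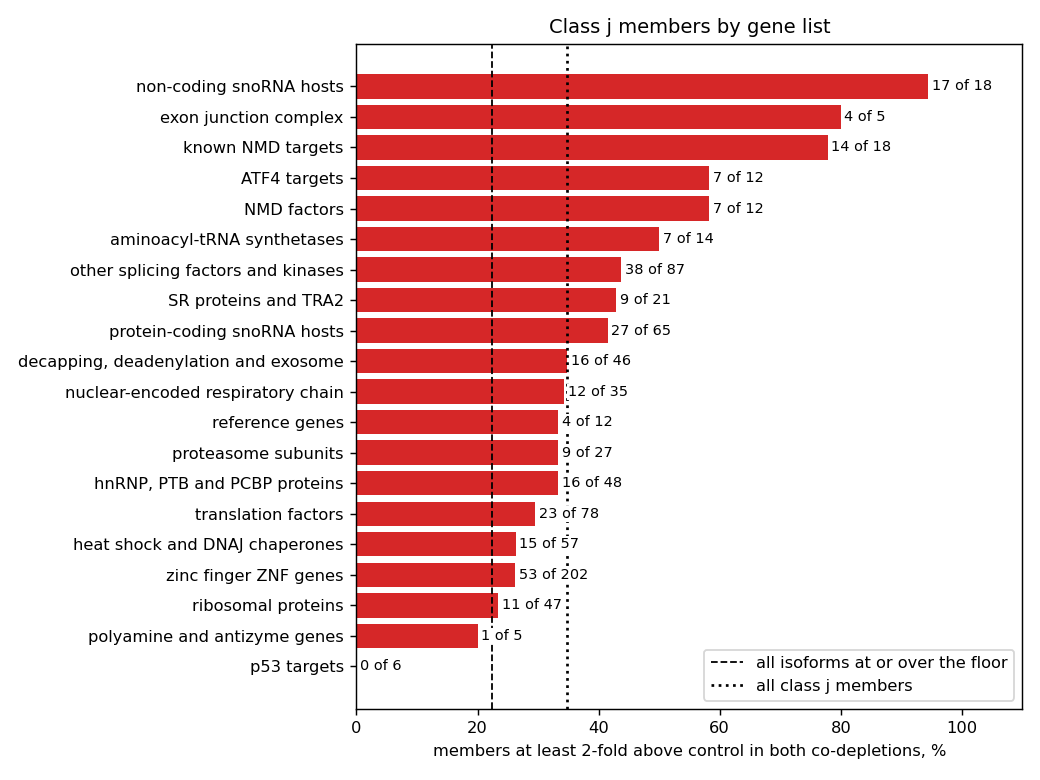
Percent of class j members of each of 20 gene lists that were at least 2-fold above the control in both co-depletions, with their number of all members of the list beside the bar; the dashed line is the 22.4% of all isoforms over the floor and the dotted line the 34.8% of all class j members. The list headed non-coding snoRNA hosts is highest with 17 of 18, ribosomal proteins lie near the dashed line with 11 of 47, several groups lie near the dotted line, and p53 targets have 0 of 6.

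Members that were lower in both co-depletions were few. With at least 3 reads in every library, and named after the data were seen, the falls included the abundant processed transcript RP5-857K21.4 with 227262, 216382, 32403 and 21709, 0.143 times as high (95% interval 0.139 to 0.146) in SMG6/XRN1 relative to control. The locus of RP5-857K21.4 had only 14.6, 13.7, 2.33 and 1.89 FPKM, and whether these reads come from that transcript was not tested. A member of AGER, the receptor for glycation end products, had 3236, 1988, 37.1 and 407. One of MSI2, a translational regulator, had 4142, 2999.7, 562 and 187. Their class = sums were 799.9, 861, 1319 and 984 and 9279, 7318, 11072 and 9591. In each of the 3 both co-depletions lay below both other libraries. Of falls named by the rule, the DDB1 member, from a gene of UV damage recognition, had 2882, 3322, 1.03 and 259, at least 226-fold lower in SMG6/XRN1 than in control, beside a class = sum of 23609, 16496, 16724 and 15215.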

How the data were processed

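RNA-seq of 4 libraries, 1 per group, was used. The other 5 samples, of 5′ ends and CAGE, were not analysed here. Per the submitters' processing notes, the build was hg19 and the tools, listed with no role or order, included Cufflinks 2.0.2, TopHat2 2.0.6, Bowtie 0.12.7 and CASAVA 1.8.2. The isoform values are a signal scaled by a spike-in, as the authors' table is headed. Which spike-in and which factor is not given in the sources here. The deposited locus values are FPKM, per length and depth. The deposited class codes, reference names and NMD mark are the authors' own. No source used here says if counting used strand, which leaves antisense partners, overlapping genes and near-identical copies uncertain.

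Low signals are whole multiples of 1 step per library, which gave the estimated reads: of loci with at most 20 reads, 86.7% to 89.0% were whole within 0.01. Isoform reads are fractional, so no count test was run. Changes are log2((a + 1)/(b + 1)) of the signal, called at 2-fold, and understate low isoforms. Where a library held fewer than 3 reads, folds are bounds against 3 reads in that library. Ratios printed with an interval, and their 95% exact conditional binomial intervals, are of reads rounded to whole numbers. Locus comparisons used the summed class = isoforms where their mean reached the floor of 245. Reference transcripts were matched by stable ID to GENCODE 29, with the same version for 13.4% of members.

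The members, the 20 gene lists and the comparisons were chosen with earlier results of these data known. Isoforms named by rule have a symbol and no 0, and are the 8 largest rises and 5 largest falls of XRN1 over control and of each co-depletion over XRN1, the 12 largest smaller rises of both co-depletions over control beside a class = sum under 2-fold, the 10 highest means, up to 3 largest and 1 lowest per list, those nearest the floor, and all of XRN1, SMG6, UPF1 and HBB. Not all of these are described. Alternatives were other pseudocounts, folds, floors, scalings, sums per locus and, chosen after seeing the data, 3 reads in every library and shares without the 2 highest members. Python 3.11.15, pandas 2.3.3, numpy 2.4.6, scipy 1.17.1 and matplotlib 3.10.9 were used.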

Additional observations from a re-analysis of the deposited data

How the results depend on the processing

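Counts of calls below are in the order XRN1 over control, SMG6/XRN1 over XRN1, UPF1/XRN1 over XRN1, SMG6/XRN1 over control and UPF1/XRN1 over control. Higher counts exceeded lower counts in every comparison under every alternative run. A floor of 100 or 500 changes how many isoforms enter, and another fold how far they must move. With a floor of 100, 3506, 3352, 3616, 4986 and 4964 members were higher and 1273, 968, 1287, 817 and 1077 lower, and against the class = isoforms of the locus 2775, 2589, 3081, 3534 and 3775 were higher and 1807, 1478, 1654, 1590 and 1705 lower. With a floor of 500 these were 1349, 1097, 1138, 1925 and 1847 higher and 278, 225, 392, 179 and 319 lower, and within the locus 1014, 807, 962, 1275 and 1330 higher and 490, 450, 590, 461 and 556 lower. At 1.5-fold 3000, 2963, 2958, 4092 and 3864 were higher and 1004, 759, 1151, 642 and 946 lower, and 1431, 1322, 1464, 1311 and 1466 lower within the locus. At 3-fold 1435, 1068, 1247, 2278 and 2303 were higher and 369, 286, 397, 252 and 337 lower, and within the locus 1125, 861, 1085, 1536 and 1696 higher and 590, 445, 540, 525 and 599 lower. Summed per locus, 1172, 919, 977, 1775 and 1722 loci were higher and 199, 176, 291, 143 and 252 lower. With 3 reads in every library, 363, 243, 443, 211 and 377 members were lower.

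Centred on the median of all isoforms, 657 members were lower in SMG6/XRN1 over control in place of 393, and the share of higher among all calls there went from 88.8% to 79.1%. Of 855 changes of named isoforms, centring left 813 on the same side of 2-fold, a pseudocount of 10 left 849 and the same total per library left 831. The other alternatives (no library at 0, the most abundant class = isoform alone, all isoforms not of class j, and another denominator for the shares) moved no count by over 1.5 times. No result reversed. No paired analysis was possible because there is 1 library per group. For the same reason no replicate could be left out, and depth limits isoforms near the floor, where the control held 63.6 reads at a signal of 245.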
